A study of Mus musculus with 5 samples.

Results

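The BCL2 family genes Bcl2, Bcl2l1, Bcl2l2, Mcl1, Bak1, Bcl2l11, Bid, Bad, Bik and Bmf were followed across embryonic stem (ES) cells, a mouse hepatoma line and the hybrids made by fusing the 2. They were chosen by name, as every probe on the arrays whose transcript record maps to one of these 10 genes in RefSeq. This gave 18 probes for 10 genes, of 41174 probes and 18327 named genes in all. 6 of the 10 genes had several probes and 4 had 1.

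Proteins of the BCL2 family decide whether the outer mitochondrial membrane is opened, the step that releases cytochrome c and starts the caspases. The pro-survival members, encoded here by Bcl2, Bcl2l1 (BCL-XL), Bcl2l2 (BCL-W) and Mcl1, hold the pore-forming effectors such as BAK, the product of Bak1, in check. The BH3-only members, encoded by Bcl2l11 (BIM), Bid, Bad, Bik and Bmf, are stress sensors that bind the pro-survival proteins or activate the effectors. Undifferentiated mouse ES cells are known to be ready to undergo apoptosis, and hepatocytes are known to depend on BCL-XL and MCL1 for survival.

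5 arrays were measured, 1 for each condition. ES is the mouse embryonic stem cell line E14, and Hepa1-6 is a mouse hepatoma line. EHe is their hybrid in the undifferentiated state, and EHeD7 and EHeD14 are EHe cells after 7 and 14 days of differentiation. By the study's methods the hybrids came from E14 cells carrying red fluorescent protein with hygromycin resistance, fused to Hepa1-6 cells carrying green fluorescent protein with neomycin resistance. Whether the arrayed parent cells carried these genes, and whether the hybrid RNA came from 1 clone, is not given in the sources used here. By the labels, leukemia inhibitory factor was in the medium of ES and EHe, whereas EHeD7, EHeD14 and Hepa1-6 were kept in a high-glucose Eagle's medium with calf serum, so that state and medium of the hybrid differ together.

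Values are scanner signals on the log2 scale, set relative to each array's 75th percentile ("scaled log2 signal"), so that -1 on this scale is 2-fold below the percentile. A probe was detected on an array where the scanner software called it well above background. Since each condition had 1 array, neither a replicate error nor a test could be had. Each log2 difference is therefore given with the error that the scanner software estimated for the spot signals, which is 0.20 for bright probes and says nothing of the spread between cultures. A gene was counted as higher or lower when its main probe differed by over 3-fold, a log2 difference of 1.58, and the brighter array was well above background. The main probe of a gene was the one detected on most arrays, or the brightest of these. Each count of members is read against the percentage of all named genes that passed the same threshold. The number of arrays limits the precision. The 75th percentile lay between a signal of 1087 and 1456, 54.6% to 67.6% of probes were well above background, and the median SD of log2 signal between repeated spots was 0.092 to 0.139. The 4 arrays other than Hepa1-6 lay on 1 slide and Hepa1-6 on another, so the slide and Hepa1-6 cannot be told apart.

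Markers of the labelled cells were checked before the members. All 6 pluripotency markers with a probe were well above background in ES, EHe, EHeD7 and EHeD14, and 2 of the 6 in Hepa1-6. Their levels were not the same in all 4 arrays, since Zfp42 was 8.34-fold lower than EHe in EHeD7 and 17.0-fold lower in EHeD14, and Sox2 3.46-fold and 4.48-fold lower, while the 4 other markers stayed within 3-fold. 6 of 8 hepatocyte markers were well above background in Hepa1-6, among them Alb and Afp, whereas Ttr and Apoa1 were not well above background there. Alb was not well above background in any hybrid, differentiated or not, and 1 or 2 of the 8 markers were in EHe, EHeD7 and EHeD14. Of 5 neural markers, 4 were well above background in ES, EHeD7 and EHeD14, 5 in EHe and 2 in Hepa1-6. Compared with EHe, Nes was 3.88-fold higher in EHeD14, while Tubb3 was 5.62-fold and Pax6 at least 40.3-fold lower. Of 3 endothelial markers 0 or 1 was well above background on each array, and Pecam1 was at least 18.7-fold lower in EHeD14 than in EHe. The part of such changes in cell state or makeup in the values of the members was not tested. In bulk RNA of this kind, fewer cells of a type and less RNA per cell cannot be told apart.

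Promoter sequences are shown for Bcl2 and Bcl2l11, because these were the 2 members of which every probe was at least 2-fold higher than in EHe at both days of differentiation. For Bcl2l11 this held by a margin within the error of the signals. The RefSeq promoter table, on build GRCm38.p6, held 15 windows for 9 of the 10 members, each from 250 bases before to 50 bases after a gene's start. The 250 bases before a start are printed 5′ to 3′ on the gene's strand. For Bcl2 they are chr1:106714291-106714540 on the minus strand, and the capitals mark the GC box GGGCGG on either strand. For Bcl2l11 they are chr2:128125788-128126037 on the plus strand, and the capitals mark the FOXO core GTAAACA.
Bcl2: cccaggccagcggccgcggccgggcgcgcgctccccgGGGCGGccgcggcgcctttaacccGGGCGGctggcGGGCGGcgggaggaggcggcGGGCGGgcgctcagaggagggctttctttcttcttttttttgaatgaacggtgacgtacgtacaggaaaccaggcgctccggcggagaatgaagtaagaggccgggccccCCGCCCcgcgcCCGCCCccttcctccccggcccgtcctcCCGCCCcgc
Bcl2l11: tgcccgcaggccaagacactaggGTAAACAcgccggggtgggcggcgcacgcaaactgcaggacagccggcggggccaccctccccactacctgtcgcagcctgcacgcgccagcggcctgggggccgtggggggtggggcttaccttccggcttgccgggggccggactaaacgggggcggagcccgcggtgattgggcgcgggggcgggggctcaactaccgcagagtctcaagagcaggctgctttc
The Bcl2 stretch held 7 GC boxes and 36 CpG dinucleotides. The Bcl2l11 stretch held 1 FOXO core, its first base 227 bases before the start, beside 3 GC boxes, which stand unmarked in the print. The table holds another window for Bcl2l11, chr2:128127325-128127624 on the plus strand, with 0 FOXO cores and 3 GC boxes, and the stretch with the core was the one chosen for printing. Of all 32851 windows in the table, 35.7% held a GC box and 3.65% held the FOXO core on either strand, and among the 15 windows of the members these numbers were 8 and 1. The median number of CpG per window was 21 in the members and 7 in all windows. The TATA box (TATAAA) was in 0 of the 15 windows against 13.6% of all windows, searched like the others on both strands. The E-box (CACGTG, 7.15% of all windows), the cAMP response element (TGACGTCA, 1.79%) and the AP-1 site (TGANTCA, 7.81%) were also in 0 of the 15. The CCAAT box was in 5 of the 15 against 37.4%. Several windows belong to the same gene, and a match of letters is a description, not a site.

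Bcl2, the founding survival gene of the family, stood far apart in the 2 parents and was higher in both differentiated hybrids than in EHe. Its main probe, to the RefSeq record NM_177410, gave signals of 162 in ES and 113 in EHe, 507 in EHeD7 and 567 in EHeD14, and 1282 in Hepa1-6. The scaled log2 signals were -2.75, -3.51, -1.37, -1.24 and -0.18 in that order. EHe was therefore the lowest of the 5 arrays, ES the next, and Hepa1-6 the highest, with the 2 differentiated hybrids between. Bcl2 was 4.43-fold higher in EHeD7 than in EHe, a log2 difference of 2.15 ± 0.25 (error of the spot signals). In EHeD14 it was 4.85-fold higher than in EHe, a log2 difference of 2.28 ± 0.25. The 2 differentiated arrays differed from each other by 0.13 ± 0.21, which is within the error of the signals.

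Hepa1-6 was 5.91-fold higher than ES in Bcl2, and EHe was 10.1-fold lower than Hepa1-6. EHe was 1.70-fold lower than ES by the main probe, a log2 difference of -0.77 ± 0.25, which placed the undifferentiated hybrid below both parents. The other Bcl2 probe had the opposite sign, 0.56, and was not well above background on either array. By its main probe the hybrid at day 14 was 2.85-fold above ES and still 2.07-fold below Hepa1-6. On the log2 scale, 64.5% of the distance from EHe to Hepa1-6 had been covered at day 7 and 68.4% at day 14.

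The other Bcl2 probe, to the record NM_009741, was printed 10 times on each array. Its mean signal was 6 in ES and 10 in EHe, not well above background on either, and 290 in EHeD7, 404 in EHeD14 and 954 in Hepa1-6. After outlier spots were left out, 9 spots in EHeD7 ran from 271 to 315, 10 spots in EHeD14 from 360 to 442 and 10 spots in Hepa1-6 from 805 to 1034. The spots of these 3 arrays did not overlap, while spots of 1 array share 1 RNA sample and are not replicates of a condition. This probe was at least 6.36-fold higher in EHeD7 and at least 8.67-fold higher in EHeD14 than in EHe, each a bound set by the lowest signal called well above background in EHe. Hepa1-6 was at least 28.1-fold higher than ES. The 2 probes gave the same direction in these comparisons. For Hepa1-6 against ES the bound lay over 3-fold above the main probe's 5.91-fold, so the probes disagreed in size there. They also disagreed in size for the differentiated hybrids against ES. There this probe was at least 9.50-fold higher in EHeD7 and at least 13.0-fold in EHeD14, where the main probe gave 2.61-fold and 2.85-fold. For the differentiated hybrids against EHe a disagreement in size was not shown, since the bounds lay within 3-fold of the main probe.

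With a normexp background correction the main probe gave a log2 difference of 1.57 between EHeD7 and EHe, just inside 3-fold, and 1.74 between EHeD14 and EHe. Mesenchymal markers moved with Bcl2 on differentiation. 6 of the 7 were over 3-fold higher than EHe at both days, with Col1a1 22.1-fold and 19.5-fold higher and Pdgfrb 6.94-fold and 4.90-fold higher at day 7 and day 14. Of the 6, Col3a1 and Postn passed on measured signals, since they were not well above background in EHe. All 7 were well above background in EHeD7 and EHeD14, 5 in ES and EHe and 2 in Hepa1-6, where Col1a1, Col3a1, Thy1, Pdgfrb and Postn were not. The summed signal of the 7, not scaled between arrays, was 24918 in Hepa1-6, 24525 in EHeD14 and 23016 in EHeD7. It was 17776 in EHe and 16912 in ES. Acta2 was the brightest of the 7 on every array and made up most of this sum, nearly all of it in Hepa1-6. Its scaled log2 signal was 4.09 in Hepa1-6 and differed between EHe and EHeD14 by 0.02. The median scaled log2 signal of the 7 was lowest in Hepa1-6, at -5.83, and -4.17 in EHe. It was -1.62 in ES, -0.67 at day 7 and -0.73 at day 14. Of 6 leukocyte markers, 2 to 4 were well above background per array, and Ptprc and Lyz2 were not on any array. The summed signal of the 6, also not scaled, was 319 to 563. The part of a mesenchymal cell share in the Bcl2 values was not tested.

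**Figure D1:**
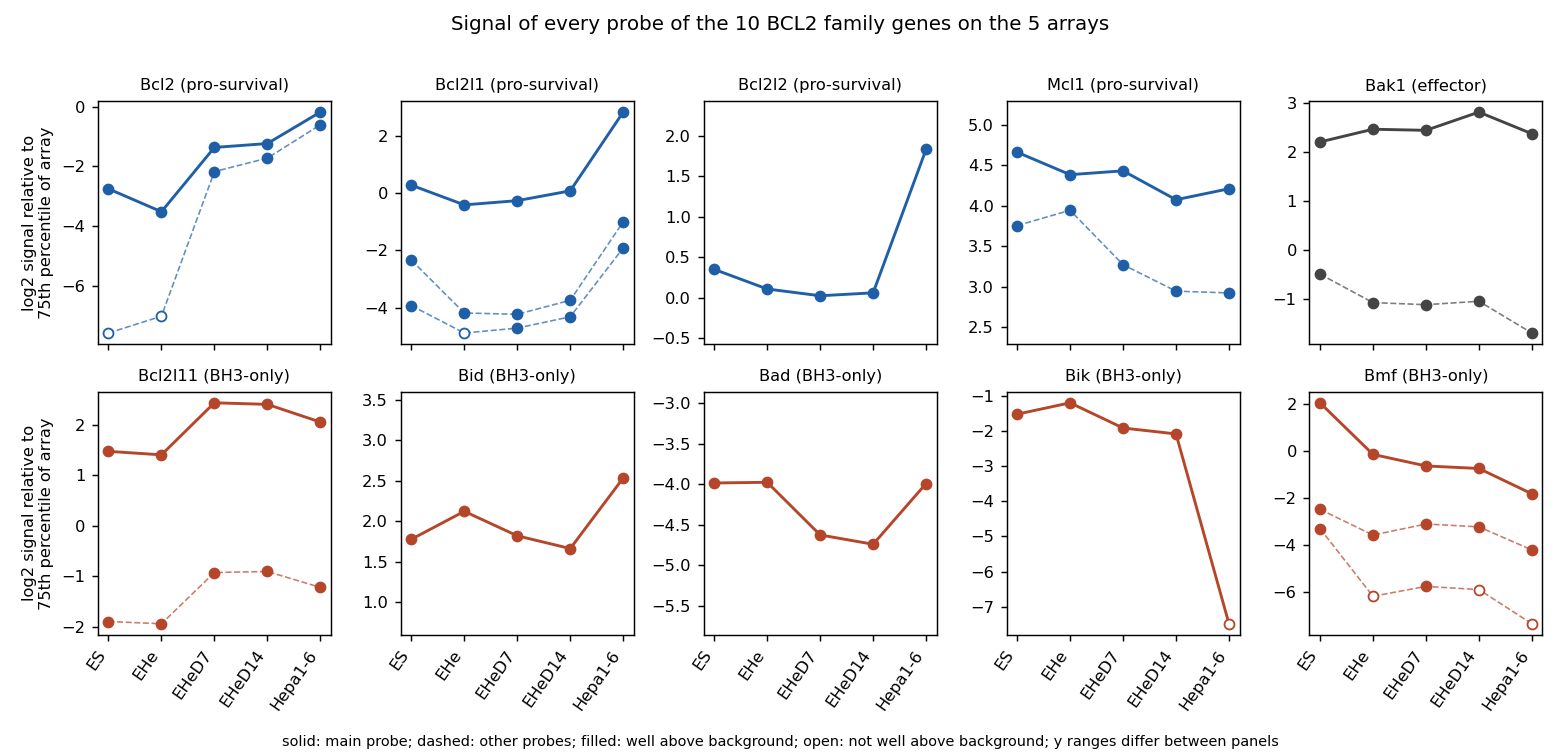
Scaled log2 signal (vertical axis) of every probe of the 10 genes on the arrays ES, EHe, EHeD7, EHeD14 and Hepa1-6 (horizontal axis), 1 array each, solid for the main probe and dashed for the others. Filled points are well above background and open points are not, and both Bcl2 probes are higher in EHeD7 and EHeD14 than in EHe, while the Bcl2l1 and Bcl2l2 probes are highest in Hepa1-6.

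Bcl2l1, which encodes BCL-XL, was high in the hepatoma parent and stayed within 3-fold of ES in all 3 hybrid arrays by its main probe. The main probe, printed 10 times, gave mean signals of 1325 in ES and 976 in EHe, 1094 in EHeD7 and 1417 in EHeD14, and 10445 in Hepa1-6. The scaled log2 signals were 0.29, -0.40, -0.26, 0.09 and 2.84. Hepa1-6 was far above the 4 other arrays, which lay within 0.69 of each other. The difference between Hepa1-6 and ES was 2.56 ± 0.20 (5.88-fold), and EHe was 9.49-fold lower than Hepa1-6. EHeD14 was 1.41-fold higher than EHe, a difference of 0.49 ± 0.20, and 6.76-fold lower than Hepa1-6. In log2 terms, 4.57% of the distance from EHe to Hepa1-6 was covered at day 7 and 15.1% at day 14.

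The single spots of this probe ran from 896 to 1053 in EHe and from 1289 to 1533 in EHeD14, so these 2 arrays did not overlap. In EHeD7 they ran from 1042 to 1170, just overlapping EHe. The SD of log2 signal between spots was 0.056 to 0.102 over the 5 arrays. 2 of the 10 spots in Hepa1-6 had been called outliers, and the 8 left ran from 9315 to 11554.

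Both other Bcl2l1 probes were also highest in Hepa1-6. The probe A_52_P510877 had scaled log2 signals of -2.34, -4.19, -4.23, -3.74 and -1.00 in the order ES, EHe, EHeD7, EHeD14 and Hepa1-6. It differed by 1.34 between Hepa1-6 and ES (2.53-fold) and was 3.60-fold lower in EHe than in ES, where the main probe was 1.61-fold lower. In EHeD7 it was 3.72-fold lower than in ES, where the main probe was 1.46-fold lower. The probe A_51_P299454 had -3.93, -4.89, -4.72, -4.32 and -1.91, not well above background in EHe, and was 4.05-fold higher in Hepa1-6 than in ES. The 3 probes therefore gave 1 direction in each of these comparisons with ES and disagreed on which side of 3-fold the difference lay. Between EHeD14 and EHe they lay close together, at 0.44 to 0.57.

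**Figure D2:**
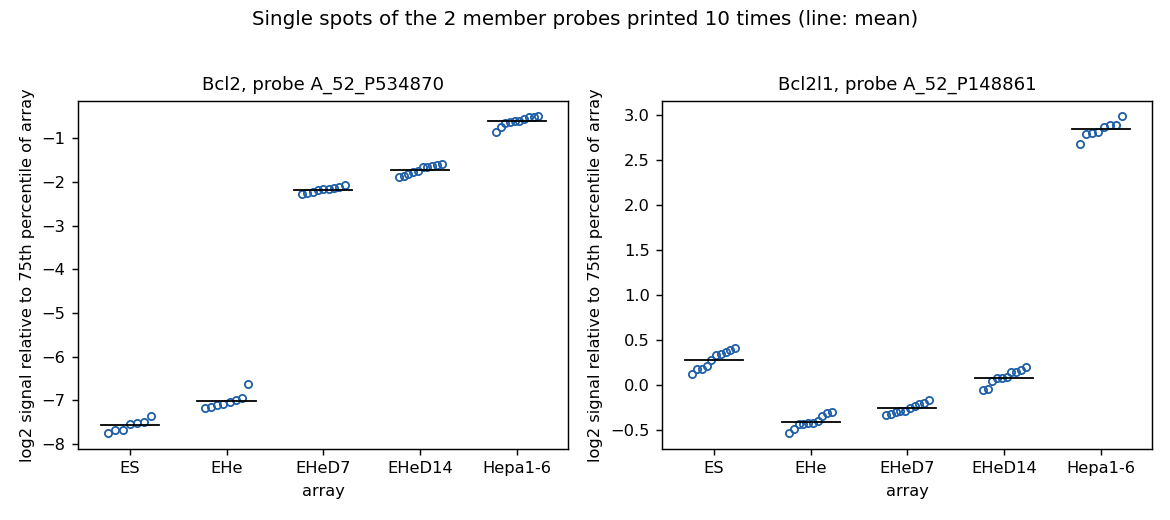
Scaled log2 signal (vertical axis) of each single spot of the 2 member probes printed 10 times, on each array (horizontal axis), with outlier spots left out and a line at the mean. The Bcl2 spots of EHeD7, EHeD14 and Hepa1-6 lie in separate ranges far above ES and EHe, which are not well above background, and the Bcl2l1 spots of Hepa1-6 lie far above the other arrays.

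Bcl2l2, which encodes BCL-W, followed Bcl2l1. Its signals were 1388 in ES and 1395 in EHe, 1331 in EHeD7 and 1394 in EHeD14, and 5190 in Hepa1-6. On the scaled log2 scale these were 0.35, 0.11, 0.03, 0.06 and 1.83, nearly level in the 4 stem cell and hybrid arrays and higher in Hepa1-6. Hepa1-6 was 2.79-fold above ES, inside 3-fold, and EHe was 3.30-fold and EHeD14 3.41-fold lower than Hepa1-6. Median centring of the arrays brought the difference between Hepa1-6 and ES to 2.29, past 3-fold. The differentiated hybrids differed from EHe by -0.08 at day 7 and -0.05 at day 14, each with an error of 0.20, so none of the distance to Hepa1-6 was covered beyond the error.

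Mcl1 encodes a short-lived survival protein that ES cells are known to need. Its main probe differed little between the arrays, with scaled log2 signals of 4.66 in ES and 4.38 in EHe, 4.43 in EHeD7 and 4.07 in EHeD14, and 4.21 in Hepa1-6. The whole range was 0.59. The other probe, A_52_P93933, read 3.75, 3.94, 3.27, 2.94 and 2.92 in the same order. It was 2.00-fold lower in EHeD14 than in EHe, a log2 difference of -1.00 ± 0.20, where the main probe gave -0.31 ± 0.20. Between EHeD7 and EHe the 2 probes had opposite signs, 0.05 and -0.67. The Hepa1-6 minus ES difference of the main probe was -0.45 and turned to 0.35 when arrays were centred on their median.

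Bak1, which encodes the pore-forming effector BAK, was well above background everywhere and differed by less than 3-fold in every comparison. The main probe had scaled log2 signals of 2.21 in ES and 2.47 in EHe, 2.45 in EHeD7 and 2.82 in EHeD14, and 2.38 in Hepa1-6. The other probe, A_52_P225207, had -0.49, -1.08, -1.12, -1.05 and -1.70. Against ES, Hepa1-6 was 0.17 ± 0.20 higher by the main probe and 1.20 ± 0.21 lower by the other (2.30-fold), so the probes gave opposite signs. In EHeD7 both probes were within 0.05 of EHe, and in EHeD14 they were 0.35 and 0.03 higher.

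Bcl2l11 encodes BIM, a BH3-only protein known as a FOXO target and a binder of all pro-survival members. It was about 2-fold higher in both differentiated hybrids than in EHe by both of its probes. The main probe gave signals of 3020 in ES and 3423 in EHe, 7077 in EHeD7 and 7076 in EHeD14, and 6053 in Hepa1-6. The scaled log2 signals were 1.47, 1.41, 2.44, 2.41 and 2.06. ES and EHe were the 2 lowest and the differentiated hybrids the 2 highest, with Hepa1-6 between. The difference from EHe was 1.03 ± 0.20 at day 7 (2.04-fold) and 1.00 ± 0.20 at day 14 (2.00-fold). The other probe gave 2.02-fold and 2.05-fold, and over all comparisons the 2 probes of Bcl2l11 differed by less than 0.10. All were below the 3-fold threshold, and at 2-fold Bcl2l11 passed at both days beside Bcl2, where 17% of all named genes were higher at day 7 and 16.5% at day 14. Both of its main probe differences lie within the error of the 2-fold line. Median centring moved the all-gene median of EHeD14 minus EHe from -0.03 to -0.16, which places Bcl2l11 below 2-fold at day 14.

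Foxo1, which encodes a FOXO factor, was higher in EHeD14 than in EHe by 1.52 (2.87-fold) and by 1.62 with its other probe. Its scaled log2 signal was 1.30 in EHe and 1.37 in Hepa1-6, against 2.69 in EHeD7 and 2.82 in EHeD14. Foxo3 was well above background only in EHeD7. A link between these values and the FOXO core in the Bcl2l11 promoter was not tested.

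Bmf encodes a BH3-only protein known to be held on the cytoskeleton by dynein light chain. All 3 of its probes were highest in ES. The main probe gave signals of 4538 in ES and 1177 in EHe, 847 in EHeD7 and 802 in EHeD14, and 415 in Hepa1-6. The scaled log2 signals were 2.06, -0.13, -0.63, -0.73 and -1.81, so the hybrids lay between the parents. EHe was 4.58-fold lower than ES, a difference of -2.20 ± 0.20, and Hepa1-6 14.7-fold lower, a difference of -3.87 ± 0.21. EHeD14 was lower than EHe by 0.60 ± 0.20 in log2 and 6.95-fold lower than ES. The main probe was 3.20-fold higher in EHe than in Hepa1-6, a log2 difference of 1.68 that came to 0.99 with median centring and 1.44 with quantile normalization, both inside 3-fold.

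The 3 Bmf probes did not give the same sizes. The probe A_51_P482239 read -2.47, -3.57, -3.10, -3.22 and -4.20 in the order ES, EHe, EHeD7, EHeD14 and Hepa1-6. It was 2.14-fold lower in EHe than in ES and 3.32-fold lower in Hepa1-6 than in ES. Against ES, EHeD14 was 1.68-fold lower by this probe, where the main probe gave 6.95-fold. In EHeD14 the probe A_51_P482239 was 0.35 above EHe, opposite in sign to the main probe. The probe A_52_P78830 was well above background in ES and EHeD7 only, at least 2.92-fold lower in EHe and at least 4.03-fold lower in Hepa1-6 than in ES. All 3 thus placed ES above EHe and above Hepa1-6, and the direction between EHe and the differentiated hybrids was not the same in all.

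Bik, a BH3-only gene whose protein sits at the endoplasmic reticulum, was read in the ES and hybrid arrays and not in the hepatoma. Its single probe gave signals of 378 in ES and 563 in EHe, 346 in EHeD7 and 315 in EHeD14, and 8 in Hepa1-6, where it was not well above background. The first 4 values were -1.52, -1.20, -1.92 and -2.08 in scaled log2. Compared with Hepa1-6, Bik was at least 13.7-fold higher in ES, 17.2-fold in EHe, 10.5-fold in EHeD7 and 9.32-fold in EHeD14. The differentiated hybrids thus had a Bik signal well above background and the hepatoma parent did not. In EHeD14 it was 1.85-fold lower than in EHe, a difference of -0.88 ± 0.21, and in EHeD7 lower by 0.72 ± 0.21.

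Bid encodes a protein that caspase-8 cleaves to link death receptors to mitochondria. Its scaled log2 signals were 1.78 in ES and 2.12 in EHe, 1.82 in EHeD7 and 1.66 in EHeD14, and 2.53 in Hepa1-6. Hepa1-6 was highest, by 0.76 ± 0.20 over ES, and EHeD14 was lower than EHe by 0.46 ± 0.20. Bad, whose protein is silenced by AKT phosphorylation, was dim, with signals of 69, 82, 53, 50 and 92 in the order ES, EHe, EHeD7, EHeD14 and Hepa1-6. Its scaled log2 signals were -3.98, -3.97, -4.62, -4.74 and -3.99, with the differentiated hybrids lowest. The difference between EHeD14 and EHe was -0.76 ± 0.36. Hepa1-6 and ES differed by -0.01 ± 0.29 in Bad, and by 0.80 with median centring or quantile normalization.

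**Figure D3:**
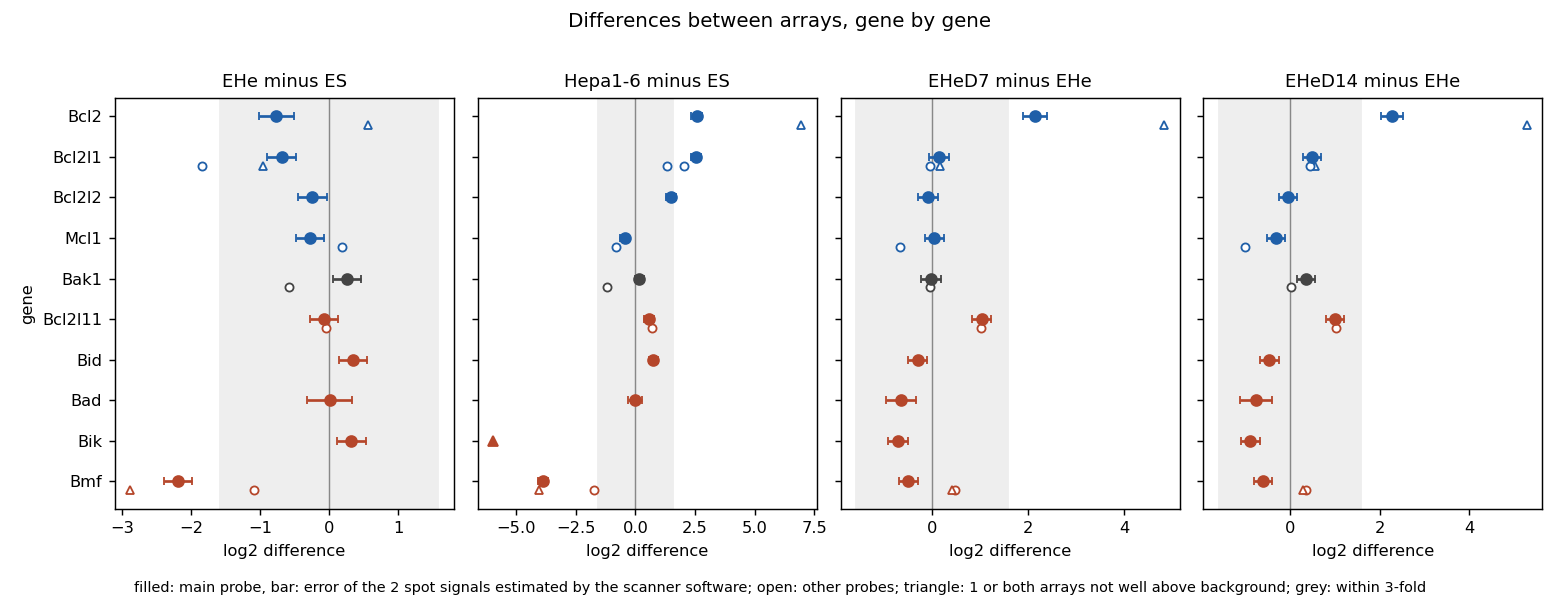
Log2 difference (horizontal axis, a range of its own in each panel) of each gene (vertical axis) in 4 comparisons, filled for the main probe with the error of the 2 spot signals, open for other probes, and triangles where an array was not well above background. Bcl2 lies outside the grey 3-fold band to the right in the panels of Hepa1-6 minus ES, EHeD7 minus EHe and EHeD14 minus EHe, and Bmf lies outside it to the left in the first 2 panels.

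Counted by the main probes, the parents differed in 4 of the 10 members. Bcl2 and Bcl2l1 were over 3-fold higher and Bik and Bmf over 3-fold lower in Hepa1-6 than in ES, where 14.9% of all named genes tested were higher and 27.9% lower. The 2 of 10 members in each direction are close to these shares of all genes. The 2 higher members are pro-survival and the 2 lower are BH3-only. The median log2 difference was 2.02 over the 4 pro-survival genes, -0.01 over the 5 BH3-only genes, 0.37 over all 10 members and -0.48 over all genes tested. The BH3-only median is the value of Bad, a dim probe with an error of 0.29. Among BH3-only genes outside the 10, Pmaip1 and Bbc3 were higher in Hepa1-6 than in ES, by 2.83 and 0.46, and Hrk was not well above background. Centring each array on its median moved the all-gene median to 0.33 and the percentages to 24% higher and 18.6% lower. With that centring 3 members were higher, Bcl2l2 among them, and 2 lower. Because centring adds the same amount to every gene of a comparison, it leaves the distance between the members' median and that of all genes as it was.

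The main probes placed the undifferentiated hybrid within 3-fold of ES in all members but Bmf. Against ES, 0 members were over 3-fold higher and 1, Bmf, was lower in EHe, where 2.96% of all genes were higher and 6.17% lower. The median member difference was -0.16 and so was that of all genes. By the main probe all 4 pro-survival genes lay below ES in EHe, by 0.24 to 0.77, while the other probe of Mcl1 lay 0.19 above. Against Hepa1-6, Bik and Bmf were over 3-fold higher in EHe and Bcl2, Bcl2l1 and Bcl2l2 lower, beside 22.9% and 16.1% of all genes. These comparisons share the EHe array and are not independent. For Bmf only the main probe passed against Hepa1-6. The probe A_51_P482239 was 1.55-fold higher in EHe, and A_52_P78830 was not well above background on either array.

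On differentiation, Bcl2 was the 1 member over 3-fold higher, at day 7 (9.86% of all genes) and at day 14 (10.3%). 0 members were over 3-fold lower at day 7 (4.38% of all genes) or day 14 (5.20%). This share of the 10 members is close to that of all genes. Of the 5 BH3-only genes, Bcl2l11 was above EHe at both days and Bid, Bad, Bik and Bmf below it by the main probe, each by less than 3-fold. The BH3-only median at day 14 was -0.60, that of the 4 pro-survival genes 0.22, and that of all genes -0.03. This BH3-only median is the value of the Bmf main probe, while the Bmf probe A_51_P482239 lay 0.35 above EHe. Among BH3-only genes outside the 10, Pmaip1 and Bbc3 were higher in EHeD14 than in EHe, by 2.41 and 1.32. Hrk was not well above background. Both days were compared with the same EHe array. Between the 2 days, 0 members passed 3-fold in either direction, as against 0.797% of all genes higher and 1.24% lower at day 14, and the largest difference of a main probe was 0.37, in Bak1.

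The day 14 hybrid differed from Hepa1-6 past 3-fold in 3 members. Bik was over 3-fold higher (23.9% of all genes) and Bcl2l1 and Bcl2l2 lower (13.7% of all genes) in EHeD14 than in Hepa1-6. With median centring Bcl2 at -1.86 and Bid at -1.68 were also over 3-fold lower in EHeD14, and with quantile normalization Bad at -1.59 was. EHe had differed from Hepa1-6 past 3-fold in these 3 and in Bcl2 and Bmf as well. By its main probe Bmf covered 29.3% of its distance from EHe to Hepa1-6 at day 7 and 35.7% at day 14, whereas the probe A_51_P482239 moved away from Hepa1-6. For 8 of the 10 members the EHeD14 minus EHe difference had the same sign as the Hepa1-6 minus ES difference, whereas 59.0% of all genes did. The exceptions were Bcl2l2 and Bid. The 8 include Bad and Bak1, whose differences between Hepa1-6 and ES lay within the error of the signals, and the other probes of Bak1 and Bmf had opposite signs in the 2 comparisons. With median centring this count was 6 of 10, beside 51.6% of all genes.

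**Figure D4:**
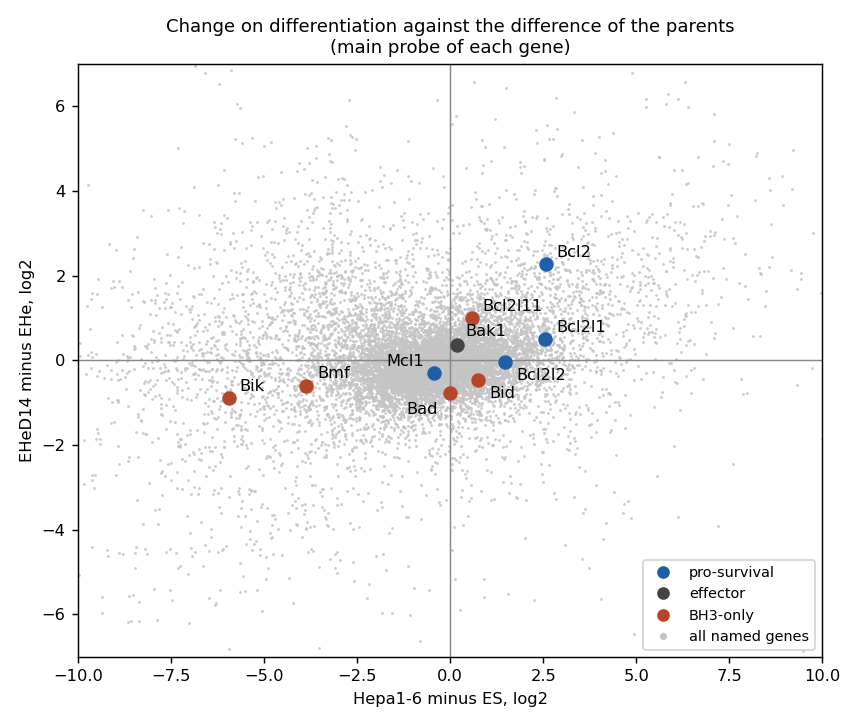
Log2 difference between EHeD14 and EHe (vertical axis) against that between Hepa1-6 and ES (horizontal axis) for the main probe of each member, coloured by role, over grey points for all 13687 named genes tested in both comparisons, of which 77 lie outside the axes. Bcl2 is the member far from 0 on both axes, Bcl2l1 is far from 0 on the horizontal axis, and Bik, not well above background in Hepa1-6, is drawn at its measured value.

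The other genes of the family were read from a fixed list of 15, of which 12 had a probe. Between Hepa1-6 and ES 4 of 10 tested were over 3-fold higher and 0 lower, beside 14.9% and 27.9% of all genes. These were Bcl2l15 (19.9-fold), Bcl2l14 (7.66-fold), Pmaip1 (7.12-fold) and Bcl2a1b. ES was not well above background for Bcl2a1b, which passed on its measured signals while the bound was at least 2.50-fold. Pmaip1 encodes NOXA, a BH3-only protein known to bind MCL1. It had scaled log2 signals of 0.31 in ES and -0.30 in EHe, 2.64 in EHeD7 and 2.11 in EHeD14, and 3.15 in Hepa1-6. As with the main probe of Bcl2, EHe was lowest, ES next and Hepa1-6 highest. It was 7.70-fold higher than EHe at day 7 and 5.33-fold at day 14, differences of 2.95 ± 0.20 and 2.41 ± 0.20.

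Bnip3, a mitochondrial BH3-related gene induced in hypoxia, was 3.62-fold higher in EHeD7 and 2.57-fold in EHeD14 than in EHe. Bbc3, which encodes PUMA, was 2.63-fold and 2.50-fold higher, inside 3-fold, with scaled log2 signals of 2.71, 2.43, 3.83, 3.75 and 3.17 from ES to Hepa1-6. Bax, the second effector, went the other way, with 3.55, 3.40, 2.64, 2.71 and 2.73 in the same order, and was 1.61-fold lower in EHeD14 than in EHe. In this list 2 of 10 genes tested were over 3-fold higher at day 7 and 1 of 9 at day 14, beside 9.86% and 10.3% of all genes, and 0 were lower at either day, beside 4.38% and 5.20%. The list median was 0.67 at day 14. Hrk was not well above background on any array.

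**Figure D5:**
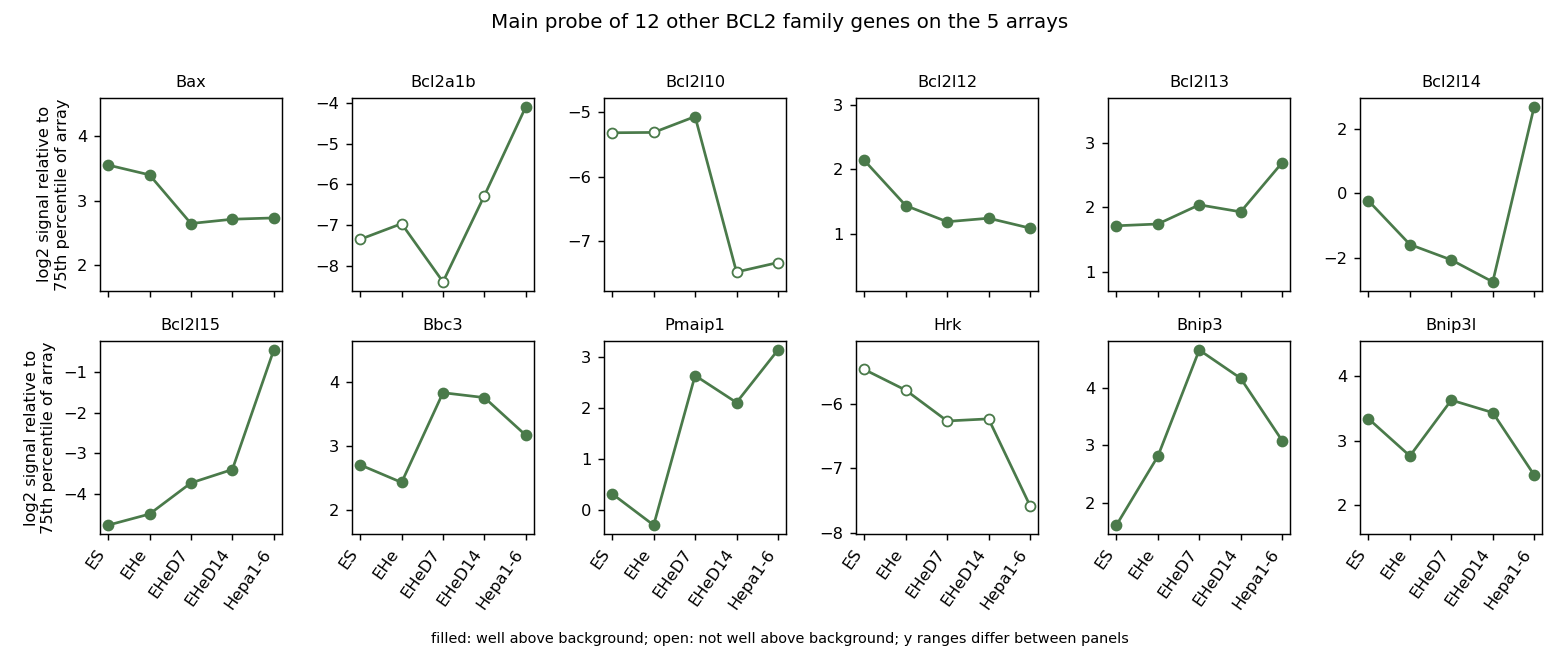
Scaled log2 signal (vertical axis) of the main probe of 12 other BCL2 family genes on the 5 arrays (horizontal axis), filled where well above background. Pmaip1 and Bbc3 are higher in EHeD7 and EHeD14 than in ES and EHe, Bax is lower, and Bcl2l14 and Bcl2l15 are highest in Hepa1-6.

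Downstream of the mitochondria, 15 genes of the apoptosis machinery all had a probe and 0 passed 3-fold between EHe and either differentiated hybrid. Of all genes, 9.86% were over 3-fold higher and 4.38% lower at day 7, and 10.3% and 5.20% at day 14. Between Hepa1-6 and ES, 14.9% of all genes were over 3-fold higher and 27.9% lower. Birc3, which encodes an inhibitor of apoptosis protein, was 4.54-fold higher in Hepa1-6. Endog, which encodes a mitochondrial nuclease, was 5.43-fold and Vdac1 3.08-fold lower. A second Vdac1 probe gave a log2 difference of -1.38, inside 3-fold. Endog was already 3.27-fold lower in EHe than in ES. Apaf1, which builds the apoptosome, was 2.28-fold higher in EHeD14 than in EHe by its main probe. Its other probes gave log2 differences of 1.30 and 0.75.

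Of 19 known regulators and binders of the members, 18 had a probe. Myc, which sensitizes cells to apoptosis, was the 1 of 17 tested over 3-fold higher at day 14, 4.72-fold, and 0 were lower. Of all genes, 10.3% were higher and 5.20% lower. Myc had been 5.34-fold lower in EHe than in ES. Its scaled log2 signal was 0.33 in ES, -2.09 in EHe and 0.15 in EHeD14, so that EHeD14 lay near ES. The least responsive of its 3 probes gave a log2 difference of 0.65, inside 3-fold. Between Hepa1-6 and ES, 3 of 17 tested were over 3-fold higher and 2 lower, beside 14.9% and 27.9% of all genes. Ddit3 (50.9-fold), Myc (15.2-fold) and Stat5b (3.02-fold) were higher. Ddit3 encodes CHOP, a stress factor known to raise BIM. Pim1 (6.53-fold) and Trp53 (3.59-fold) were lower, and a second Trp53 probe gave a difference of 0.15 with the opposite sign. Dynll1 and Dynll2, the dynein light chains, differed by less than 3-fold in the main probes between all of these arrays.

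Over the 6 members with several probes and 7 comparisons, 42 pairs of gene and comparison could be checked. By measured differences and lower bounds the probes disagreed in 6 of these, 1 of Bcl2, 2 of Bcl2l1 and 3 of Bmf, either by over 3-fold in size or in which of them passed 3-fold. In 32 pairs all probes had the same sign. The differentiated hybrids against ES are not among the 7 comparisons. There the probes of Bcl2 and Bmf also disagreed at day 7 and day 14, and those of Bcl2l1 at day 7. Among the 18 probes, 14 were well above background on all 5 arrays. Of the 10 main probes this held for 9, all but that of Bik.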

How the data were processed

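Total RNA of 5 samples was labelled and read on 1-colour Agilent mouse arrays, 1 per condition. Per the labels the dye was Cy3, while the study's methods name Cy5, and the methods describe differentiation as embryoid bodies in medium with serum replacement where the labels give a monolayer with fetal calf serum. The authors deposited scanner tables from Agilent Feature Extraction 10.7.3.1, in which the processed signal is an intensity corrected for background by the software and not normalized between arrays. The deposited series table held the same intensity values, with a largest difference of 0. No values had been averaged over samples.

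Control spots and spots called outliers (73 to 174 per array) were left out, and 0 spots were saturated. Intensities were put on the log2 scale, averaged over the spots of a probe and shifted by each array's 75th percentile. Probes were named by matching their transcript record to RefSeq, which named 26888 of 41174, so that a probe without a match is not counted for any gene. The files give no probe sequence or genome build. The study's 3-fold threshold was used for size alone. The t-test that the study required beside it could not be had with 1 array per condition. Values not well above background entered at their measured value, and a fold against them is a bound. The members and gene lists were chosen with earlier results of these data known, and all 10 members were named with every probe. From the other lists the counts and genes past 3-fold are given, except 1 gene that is not reported here, and Bbc3, Bax, Bnip3, Hrk, Apaf1, Foxo1, Foxo3, Dynll1 and Dynll2 were named after their values were seen. Alternatives were normexp on the median signal (offset 50), quantile normalization, median centring, other filters, other probe rules and a 2-fold threshold. limma 3.58.1 in R 4.3.3 ran normexp, and the rest was run in Python 3.11.15 with pandas 2.3.3, numpy 2.4.6 and matplotlib 3.10.9.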

Additional observations from a re-analysis of the deposited data

Results flagged for a closer look

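2 members had differences from EHe of opposite sign at the 2 days of differentiation. The difference between the days was not tested. The main probe of Mcl1 was 0.05 above EHe at day 7 (0.0469 before rounding) and lower at day 14, at -0.3095, on the log2 scale. The main probe of Bak1 was -0.0225 relative to EHe at day 7 and 0.3501 at day 14. The error of each difference from the spot signals is 0.20, so both day 7 values are within it. The other Mcl1 probe was below EHe at both days, with log2 differences of -0.67 and -1.00.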

How the results depend on the processing

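Of 134 recomputed counts, 123 stayed within 1.5 times the reported count and 11 moved, and 0 values past 3-fold changed sign. All 117 recomputed differences of members past 3-fold kept their direction, and 113 stayed past 3-fold. Median centring gave 1 member higher in EHe than in Hepa1-6 (16.4% of all genes) and 4 lower in EHeD14 than in Hepa1-6 (24.3%). Quantile normalization gave 1 higher in EHe than in Hepa1-6 (19.3%), as did the mean of a gene's probes (22.5%). With the filter on all 5 arrays, which leaves out Bik, 1 was lower in Hepa1-6 than in ES (15.7%), 1 higher in EHe than in Hepa1-6 (13.2%) and 0 higher in EHeD14 than in Hepa1-6 (11.4%). Normexp gave 0 higher in EHeD7 than in EHe (4.62%). At 2-fold, 2 were higher in EHeD7 than in EHe (17%), 2 in EHeD14 than in EHe (16.5%) and 2 in EHeD14 than in Hepa1-6 (32.8%). Of 553 recomputed differences of members, 26 had the other sign, none with a reported size over 0.60. The cause of these moves was not tested beyond the filter's own construction. Bik in Hepa1-6, the second Bcl2 probe in ES and EHe, and Bad lie at or near the detection limit, so that their sizes there depend on the background. No paired analysis was possible because there are no replicate numbers, only 1 array for every condition. Leaving out an array was not possible either.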
